A study of Mus musculus with 8 samples.

Results

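The genes described here are those of vasopressin reception and of cyclic AMP synthesis, breakdown and use in the outer medullary collecting duct of the mouse kidney. They were chosen by symbol: the vasopressin receptors Avpr2 and Avpr1a, Gnas, the adenylyl cyclases Adcy1 to Adcy10, the phosphodiesterases of families 1 to 11, the protein kinase A subunits, the Akap genes with a number, Creb1 and Crem. The rule found 60 of the 55291 genes in the tables, and 42 of them passed the filter on low values that 13401 genes passed. RNA was sequenced from ducts dissected out of liberase-digested kidneys of the inbred strain C57BL/6J after 3 days of high-salt (3%) or normal-salt (0.3%) feeding. There were 4 libraries per diet, every library made from 100 to 120 pooled tubule pieces of 1 mouse with a stranded mRNA kit. The sources used here do not give the sex or age of the mice. Libraries are named by diet and by the number in the column name, and values are listed in the order 2, 3, 4, 6 for high salt and 1, 2, 3, 6 for normal salt.

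Vasopressin reaches the collecting duct from the blood and binds Avpr2, the V2 receptor, on principal cells. The receptor acts through Gs, whose alpha subunit is made by Gnas, on adenylyl cyclase, and the cyclic AMP formed activates protein kinase A, which phosphorylates the water channel Aqp2 and the transcription factor CREB. Phosphodiesterases break cyclic AMP down, and A-kinase anchoring proteins (AKAPs) hold protein kinase A at particular sites in the cell. Crem, a relative of CREB, also encodes short repressors whose transcription cyclic AMP itself can start.

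The sequences before a RefSeq start of both receptors, and of Akap1 and Pde4c, which are among the members with the smallest p-values described below, are shown because CREB acts through the cyclic AMP response element, TGACGTCA, and through its core, written TGACG on either strand. Each is 250 bases before the RefSeq start, from 5′ to 3′ on the gene's strand in build GRCm38.p6, with any core in capitals. The receptor windows lie outside the genes as GENCODE M21 draws them, while those of Akap1 and Pde4c lie inside, since other transcripts of these genes start farther upstream.
Avpr2, chrX:73891852-73892101, plus strand: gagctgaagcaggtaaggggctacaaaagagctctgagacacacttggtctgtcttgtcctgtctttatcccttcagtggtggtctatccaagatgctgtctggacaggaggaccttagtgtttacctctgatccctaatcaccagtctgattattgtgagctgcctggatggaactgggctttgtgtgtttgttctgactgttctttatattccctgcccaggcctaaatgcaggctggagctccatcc
Avpr1a, chr10:122448249-122448498, plus strand: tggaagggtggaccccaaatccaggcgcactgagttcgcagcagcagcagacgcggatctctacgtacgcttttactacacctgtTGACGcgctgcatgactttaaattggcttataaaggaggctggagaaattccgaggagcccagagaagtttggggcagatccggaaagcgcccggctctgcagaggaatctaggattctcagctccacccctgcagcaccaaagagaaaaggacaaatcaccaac
Akap1, chr11:88851513-88851762, minus strand: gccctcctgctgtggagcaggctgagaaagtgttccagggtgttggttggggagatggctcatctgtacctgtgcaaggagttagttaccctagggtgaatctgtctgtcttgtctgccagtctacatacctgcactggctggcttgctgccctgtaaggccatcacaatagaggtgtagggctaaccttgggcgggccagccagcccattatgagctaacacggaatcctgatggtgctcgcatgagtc
Pde4c, chr8:70723814-70724063, plus strand: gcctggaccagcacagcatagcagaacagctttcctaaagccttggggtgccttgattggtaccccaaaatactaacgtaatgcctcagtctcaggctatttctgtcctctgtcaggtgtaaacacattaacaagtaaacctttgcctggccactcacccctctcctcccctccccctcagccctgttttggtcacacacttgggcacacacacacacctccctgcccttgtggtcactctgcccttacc
The RefSeq table held a promoter for 49 of the 60 members. The core stood in 10 of these (20.4%), Avpr1a among them, and in 17.9% of all 27025 promoters of this length. Among tested genes it stood in 8 of 36 member promoters (22.2%) and in 27.7% of all 10012. The full element was in 0 of the 49 and in 1.62% of all promoters. These letters describe the windows and show no binding.

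The comparison asked which of these transcripts differ between high and normal salt intake. None of the 42 tested members passed limma's test at an adjusted p under 0.05, where 0.0821% of all tested genes did, and limma with voom on estimated counts also called 0. At an unadjusted p under 0.05 there were 6 members (14.3%), against 10.3% of all tested genes. On TPM the count was also 6, against 9.4% of all tested genes. Crem, Pde3b and Akap1 had higher means under high salt, and Pde4c, Avpr1a and Akap8l had lower means. The share is not far from the background, so the count itself says little about the members. Means on the log scale were higher under high salt for 24 of the 42 (57.1%), against 52.8% of all tested genes. The median log2 fold change of the tested members was 0.06, against 0.01 over all tested genes, and their median 95% confidence interval reached 0.33 to either side on the log2(CPM + 1) scale. Fold changes on that scale, high salt minus normal salt, understate the change of low genes. CPM is a count relative to the library's total and TPM also divides by transcript length, so levels of different genes are compared in TPM.

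**Figure D1:**
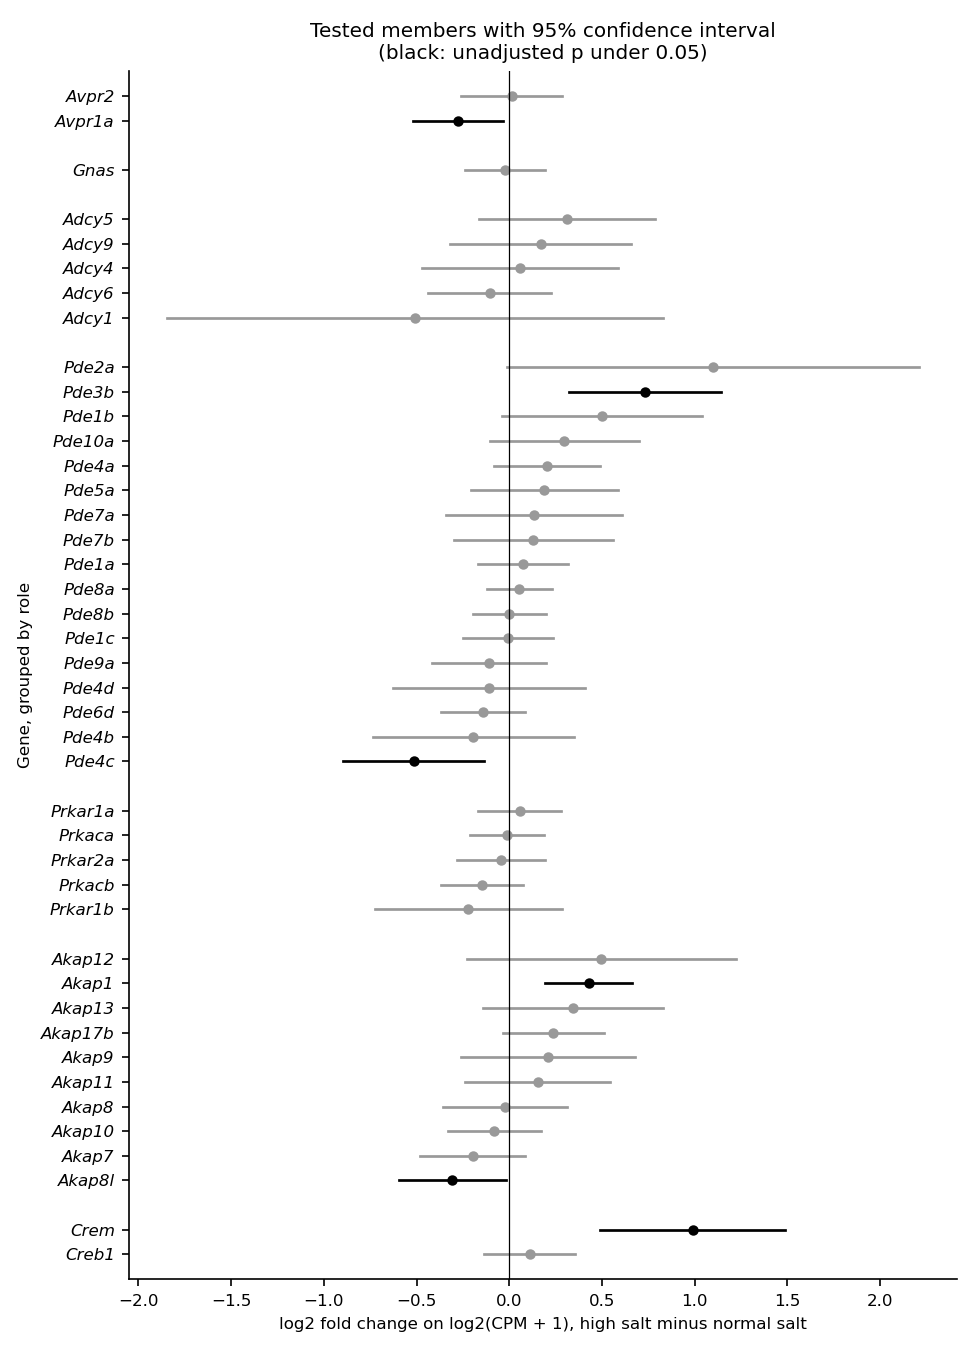
Log2 fold change of each of the 42 tested members on the log2(CPM + 1) scale, high salt minus normal salt (x axis), grouped by role down the page, with limma's 95% confidence interval as a line. The 6 members in black have an unadjusted p under 0.05 and none passes after adjustment over all genes; the points run between Pde4c at -0.52 and Pde2a at 1.10.

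The V2 receptor Avpr2 was the second most abundant member and had nearly the same mean under both diets. Its level was 555, 645, 559 and 598 TPM in the high-salt libraries, against 645, 562, 585 and 512 TPM in the normal-salt libraries. The diets overlapped over most of their range. In CPM it averaged 655 ± 49.1 under high salt and 655 ± 109 under normal salt (SD, n = 4 each), with a log2 fold change of 0.01 and a 95% interval of -0.26 to 0.29. Avpr2 lies on the plus strand of chromosome X (mm10) at 73892102-73895502, and its exons overlap those of Arhgap4 on the other strand. The kit was stranded, but whether the counting used strand is not stated in the labels, so the split of reads between such partners is uncertain.

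Avpr1a, the V1a receptor, which couples to Gq and calcium rather than to Gs, was lower than Avpr2 in every library. It had 83.8, 71.0, 80.4 and 65.0 CPM in the high-salt libraries, against 97.8, 97.7, 78.4 and 90.1 CPM in the normal-salt libraries. The groups overlapped only in that normal-salt library 3 lay below high-salt libraries 2 and 4. The log2 fold change was -0.28 (SE 0.11, limma adjusted p = 0.418). In this duct the V1a receptor is known from intercalated cells, the acid- and base-moving cells between the principal cells. Markers of intercalated cells, 13 of 13 in the tables, had a mean log2(CPM + 1) of 8.63 ± 0.14 under high salt and 8.98 ± 0.10 under normal salt (SD, n = 4 each), with no overlap. Their summed level was 9120 to 10815 CPM under high salt and 10706 to 11897 CPM under normal salt. As single genes Rhcg, Rhbg, Atp6v1b1 and Atp6v0d2 were lower under high salt without overlap, and the rest overlapped. Among the rest, Slc4a1 had 2072 to 3017 CPM under high salt and 2074 to 3257 CPM under normal salt. Aqp6 had 2483 to 3211 CPM under high salt and 2431 to 3417 CPM under normal salt. The part of the shift in the marker mean in the Avpr1a values was not tested. In bulk samples fewer cells of a type and less RNA per cell cannot be told apart. The ratio of Avpr2 to Avpr1a in TPM was 12.7 ± 2.21 under high salt and 10.4 ± 1.78 under normal salt.

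Gnas, the alpha subunit of Gs, was the most abundant member. It was measured at 721, 719, 719 and 651 CPM in the high-salt libraries, against 808, 648, 719 and 686 CPM in the normal-salt libraries. The high-salt values lay within the normal-salt range. The log2 fold change was -0.02, with a 95% interval of -0.24 to 0.20 and a limma adjusted p of 0.962. Gnas lies on the plus strand of chromosome 2 at 174284320-174346744, an imprinted locus with several overlapping transcripts, and its exons overlap Nespas and Gm20721 on the other strand.

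Adcy6, a cyclase that calcium inhibits, carried most of the adenylyl cyclase RNA. In TPM it made up 92.0%, 92.4%, 90.3% and 88.7% of the summed cyclases in the high-salt libraries, against 92.1%, 93.2%, 92.4% and 91.9% in the normal-salt libraries. Its level was 142, 147, 125 and 133 TPM under high salt, against 101, 173, 145 and 194 TPM under normal salt. The high-salt values lay inside the wide normal-salt range, whose lowest value was library 1. In CPM the log2 fold change was -0.10 (SE 0.15, limma adjusted p = 0.858). Without normal-salt library 1 it was -0.25, with an adjusted p of 0.308.

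The next cyclases, Adcy9 and Adcy5, averaged 5.98 ± 1.48 and 4.75 ± 1.28 TPM over all 8 libraries. Adcy9 exceeded Adcy5 in 7 of 8 libraries, so their order is not fixed by these data, while Adcy6 exceeded Adcy9 in 8 of 8. Adcy4 and Adcy1 followed at 0.937 ± 0.389 and 0.855 ± 0.909 TPM, and their order held in 6 of 8. Adcy1, a calcium-stimulated cyclase, had 1.56, 0.892, 3.48 and 19.6 CPM under high salt, against 7.003, 4.33, 4.13 and 7.34 CPM under normal salt. The 3 lowest values of Adcy1 and its highest were all high-salt libraries. For the thick ascending limb, a tubule segment lying beside these ducts, 11 of 11 markers were in the tables. High-salt library 6 had the highest mean of them, at 5.30 on the log2(CPM + 1) scale, with 2.91 to 3.92 in the other high-salt libraries and 4.05 to 5.21 in the normal-salt libraries. Their summed level was 565 to 3239 CPM under high salt and 1055 to 2629 CPM under normal salt. Of this, Kcnj16 gave 467 to 502 CPM under high salt and 397 to 546 CPM under normal salt. It made up most of the lowest sum, in high-salt library 2. Umod gave 35.7 to 1695 CPM under high salt and 355 to 1368 CPM under normal salt. The part of that segment in the Adcy1 values was not tested.

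Adcy3, which serves olfactory neurons and primary cilia, did not reach the filter. It had 0.053, 0.785, 0.143 and 0.526 TPM under high salt, against 0.253, 0.026, 0.341 and 0.160 TPM under normal salt. The other cyclases that did not reach it were Adcy2, Adcy7, Adcy8 and the bicarbonate-stimulated soluble cyclase Adcy10. Of the 5 tested cyclases 3 had higher and 2 lower means of log2(CPM + 1), and 0 had an unadjusted p under 0.05.

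**Figure D2:**
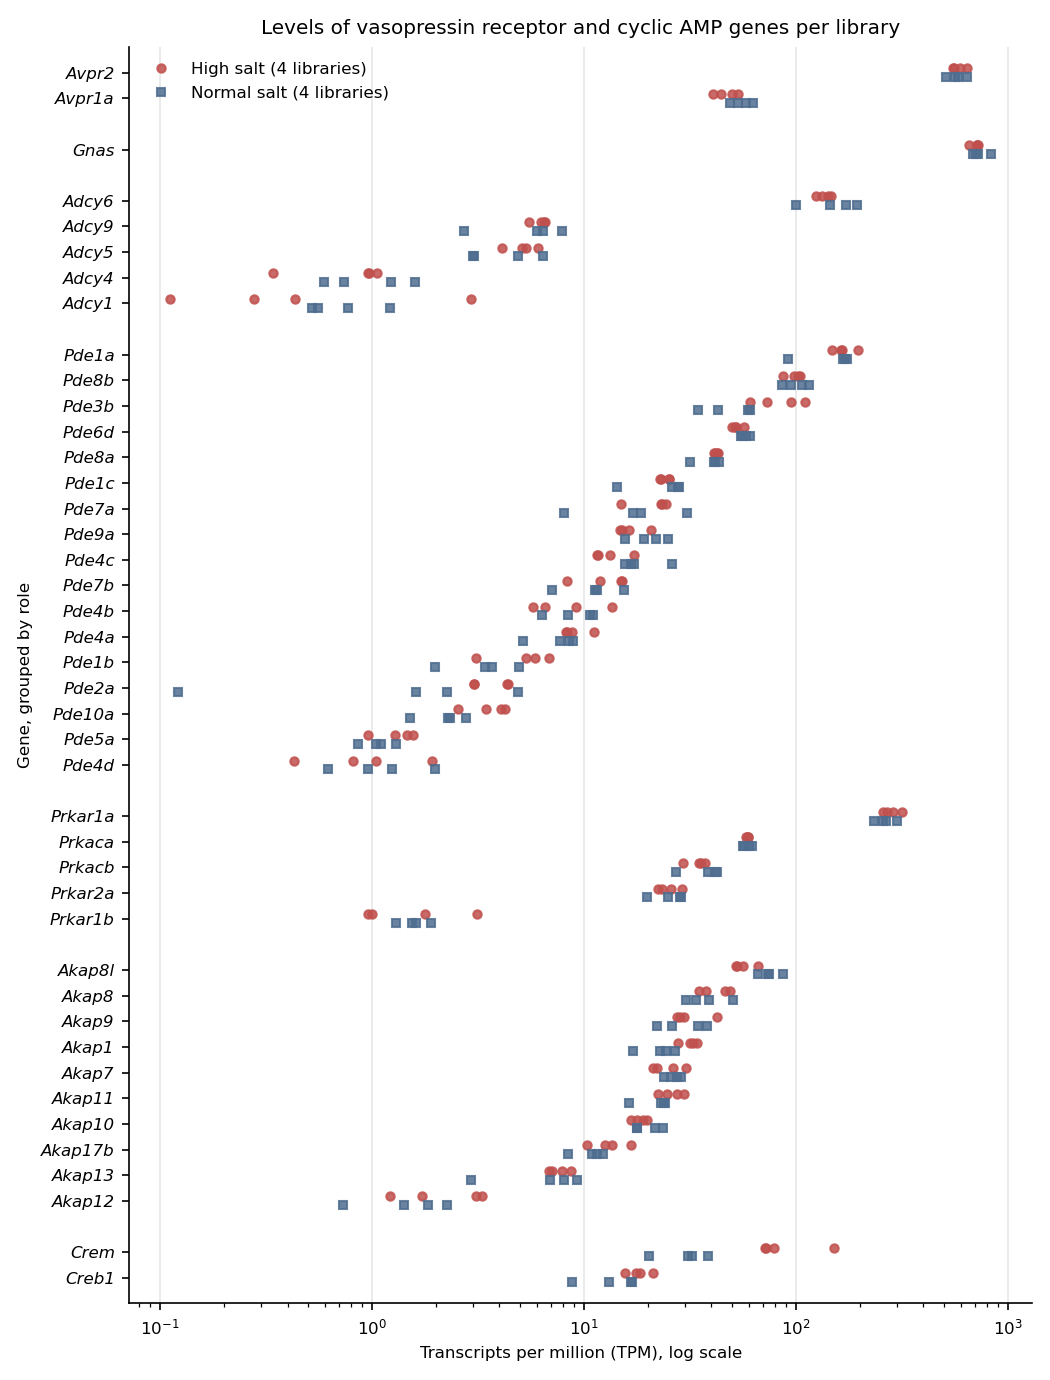
Level of each member with a mean of at least 0.5 TPM in each library (x axis, TPM on a log scale), grouped by role and ordered by mean level within a role, with the 4 high-salt libraries as red circles above the 4 normal-salt libraries as blue squares. Avpr2, Gnas, Adcy6, Pde1a and Prkar1a lead, and Crem lies at 71.8 to 152 TPM under high salt and 20.3 to 38.6 TPM under normal salt.

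The rule held 24 phosphodiesterase symbols, of which 17 were tested. By textbook substrate, families 4, 7 and 8 act on cyclic AMP, families 5, 6 and 9 on cyclic GMP, and families 1, 2, 3, 10 and 11 on both. Pde6d, which carries prenylated proteins, and the inhibitory subunits Pde6g and Pde6h are not enzymes. All 8 cyclic AMP-specific genes were tested, and so were 6 of the 8 dual genes and 2 of the 5 for cyclic GMP. Pde1a, a calcium- and calmodulin-stimulated enzyme, was the most abundant at 169 ± 19.7 TPM under high salt and 151 ± 39.4 TPM under normal salt (SD, n = 4 each). Pde8b, a cyclic AMP enzyme with high affinity, followed at 98.4 ± 8.004 TPM under high salt and 101 ± 12.7 TPM under normal salt, and Pde8a had 42.1 ± 0.844 TPM under high salt and 39.5 ± 5.24 TPM under normal salt. Pde1a exceeded Pde8b in 8 of 8 libraries and Pde8b exceeded Pde3b in 7 of 8.

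Pde3b, which cyclic GMP inhibits and which insulin signalling activates in fat and liver, had a higher mean under high salt. It was measured at 299, 201, 354 and 236 CPM in the high-salt libraries, against 129, 187, 143 and 191 CPM in the normal-salt libraries. The diets did not overlap in CPM, but in TPM high-salt library 3, at 60.6, lay just below normal-salt library 2, at 60.8. The ratio of the means was 1.68, and the log2 fold change was 0.73 (SE 0.18, limma adjusted p = 0.171). Leaving out 1 library gave 0.60 (high-salt library 4) to 0.87 (high-salt library 3), and the replicate block described below gave 0.49. Over all 20 alternatives the limma adjusted p of Pde3b ranged from 0.0737 to 0.515. In TPM, Pde3b made up 18.3%, 12.3%, 19.3% and 15.4% of the summed catalytic phosphodiesterases under high salt, against 10.3%, 11.9%, 9.02% and 11.3% under normal salt. The gene lies on the plus strand of chromosome 7 at 114415281-114539251, and no other GENCODE exon overlaps its exons. Non-overlap was found in 3 of the 42 tested members (7.14%), the others being Crem and Akap1, against 6.4% of all tested genes.

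Pde4c, a cyclic AMP enzyme found at the primary cilium of collecting duct cells, had lower means under high salt. It had 23.4, 23.6, 27.0 and 35.3 CPM in the high-salt libraries, against 37.8, 32.1, 35.7 and 53.0 CPM in the normal-salt libraries. High-salt library 6 lay above normal-salt library 2, and the other 3 high-salt libraries lay below all of normal salt. The log2 fold change was -0.52 (SE 0.17, limma adjusted p = 0.315). It was -0.30 in a fit that also held the mean of the 9 thick ascending limb markers that passed the filter. Pde4d, whose long forms bind AKAPs and beta-arrestin, was near the filter at 0.661, 2.08, 1.08 and 1.26 CPM under high salt, against 1.26, 1.39, 0.967 and 2.07 CPM under normal salt. Its log2 fold change was -0.11 (limma adjusted p = 0.912). Pde4a and Pde4b, which also act on cyclic AMP, had log2 fold changes of 0.21 and -0.19.

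Pde2a, which cyclic GMP stimulates, had the largest log2 fold change of the members at 1.10, with a 95% interval of -0.01 to 2.21 and a limma adjusted p of 0.489. It had 10.8, 8.09, 10.9 and 6.20 CPM under high salt, against 0.370, 3.98, 4.83 and 9.84 CPM under normal salt. Normal-salt library 1 was far below the rest, and without it the log2 fold change was 0.52. The remaining tested phosphodiesterases had log2 fold changes between -0.14 for Pde6d and 0.50 for the calmodulin-stimulated Pde1b. By class, cyclic AMP-specific genes made up 37.1% to 42.1% of summed catalytic TPM under high salt and 42.4% to 48.7% under normal salt. Dual genes, Pde3b among them, made up 53.3% to 60.0% of it under high salt and 43.4% to 53.2% under normal salt. Normal-salt library 1 gave both the 43.4% and the 48.7%, and dual genes made up 50.1% to 53.2% in the other normal-salt libraries. These are shares of the same sum, so they do not vary independently.

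Protein kinase A is a pair of regulatory and a pair of catalytic subunits, and cyclic AMP binds the regulatory ones. Its RNA was led by Prkar1a, the type I alpha regulatory subunit, at 270, 289, 259 and 318 TPM under high salt, against 233, 267, 299 and 258 TPM under normal salt. The diets overlapped. Prkar1a made up 89.4% to 91.6% of regulatory subunit TPM over the 8 libraries, and Prkar2a, the type II alpha subunit, 7.44% to 9.81%. Prkar2b, the type II beta subunit known from fat and brain, did not pass the filter and had 0.514, 0.475, 0.546 and 0.260 TPM under high salt, against 0.365, 0.278, 0.484 and 0.312 TPM under normal salt.

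Prkaca, the main catalytic subunit, was among the steadiest members. It had 81.5, 82.7, 81.4 and 81.3 CPM under high salt, against 94.0, 76.5, 85.1 and 75.0 CPM under normal salt. All high-salt values lay within the normal-salt range, and the log2 fold change was -0.01 with a 95% interval of -0.21 to 0.19. Prkacb, the beta catalytic subunit, had 88.1, 87.0, 73.2 and 88.6 CPM under high salt, against 81.3, 92.0, 102 and 98.3 CPM under normal salt. Its groups overlapped through normal-salt library 1 alone (log2 fold change -0.15, limma adjusted p = 0.674). Without that library its log2 fold change was -0.21 (limma adjusted p = 0.325). Prkar2a had 76.1, 70.4, 67.3 and 87.1 CPM under high salt, against 69, 73.4, 86.3 and 81.7 CPM under normal salt, and the groups overlapped. Log2 fold changes were 0.06 for Prkar1a and -0.05 for Prkar2a, with limma adjusted p-values of 0.891 and 0.924. The ratio of summed catalytic to summed regulatory TPM was 0.326, 0.299, 0.309 and 0.270 under high salt, against 0.343, 0.324, 0.314 and 0.343 under normal salt. High-salt library 2 lay inside the normal-salt range and the others below it. This says nothing of protein or of kinase activity.

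AKAPs had 15 symbols, of which 10 were tested. Akap1, which anchors the kinase at the outer mitochondrial membrane, had 64.1, 75.2, 72.0 and 78.2 CPM in the high-salt libraries, against 46.3, 54.9, 61.3 and 52.2 CPM in the normal-salt libraries. The diets did not overlap, with high-salt library 2 just above normal-salt library 3. The ratio of the means was 1.35, and the log2 fold change was 0.43 (SE 0.11, limma adjusted p = 0.163). Akap1 lies on the minus strand of chromosome 11 at 88830792-88864586.

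Akap8l, a nuclear relative of Akap8, was the most abundant Akap at 56.8 ± 6.39 TPM under high salt and 75.6 ± 8.66 TPM under normal salt (SD, n = 4 each). In CPM it had 62.7, 76.6, 59.2 and 62.9 under high salt, against 67.1, 86.3, 74.0 and 99.0 under normal salt. The groups overlapped through high-salt library 3 (log2 fold change -0.31, SE 0.13, limma adjusted p = 0.452). Akap7 and Akap11, both studied as partners of Aqp2 trafficking, had limma log2 fold changes of -0.20 and 0.15, with adjusted p-values of 0.655 and 0.816. Without normal-salt library 1 that of Akap11 turned to -0.04. Akap7 averaged 25.0 ± 4.15 TPM under high salt and 26.5 ± 2.20 TPM under normal salt, and Akap11 averaged 26.1 ± 3.17 TPM under high salt and 21.8 ± 3.70 TPM under normal salt. Akap9, Akap1, Akap7 and Akap11 followed Akap8 in level, and neighbours in that order exceeded each other in only 4 or 5 of 8 libraries.

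Akap12, also called gravin, a scaffold at the plasma membrane, had 4.61, 11.99, 13.1 and 6.59 CPM under high salt, against 3.19, 8.58, 6.96 and 5.15 CPM under normal salt (log2 fold change 0.50, limma adjusted p = 0.66, and 0.27 without normal-salt library 1). Akap13, a large scaffold protein, had 53.1, 46.7, 48.0 and 44.9 CPM under high salt, against 21.1, 44.2, 44.6 and 47.9 CPM under normal salt. Its log2 fold change was 0.34, and without normal-salt library 1 it was 0.08. The sperm proteins Akap3 and Akap4, the muscle and heart protein Akap6, and Akap5 and Akap14 did not pass the filter, and Akap4 was at 0 in all 8 libraries.

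**Figure D3:**
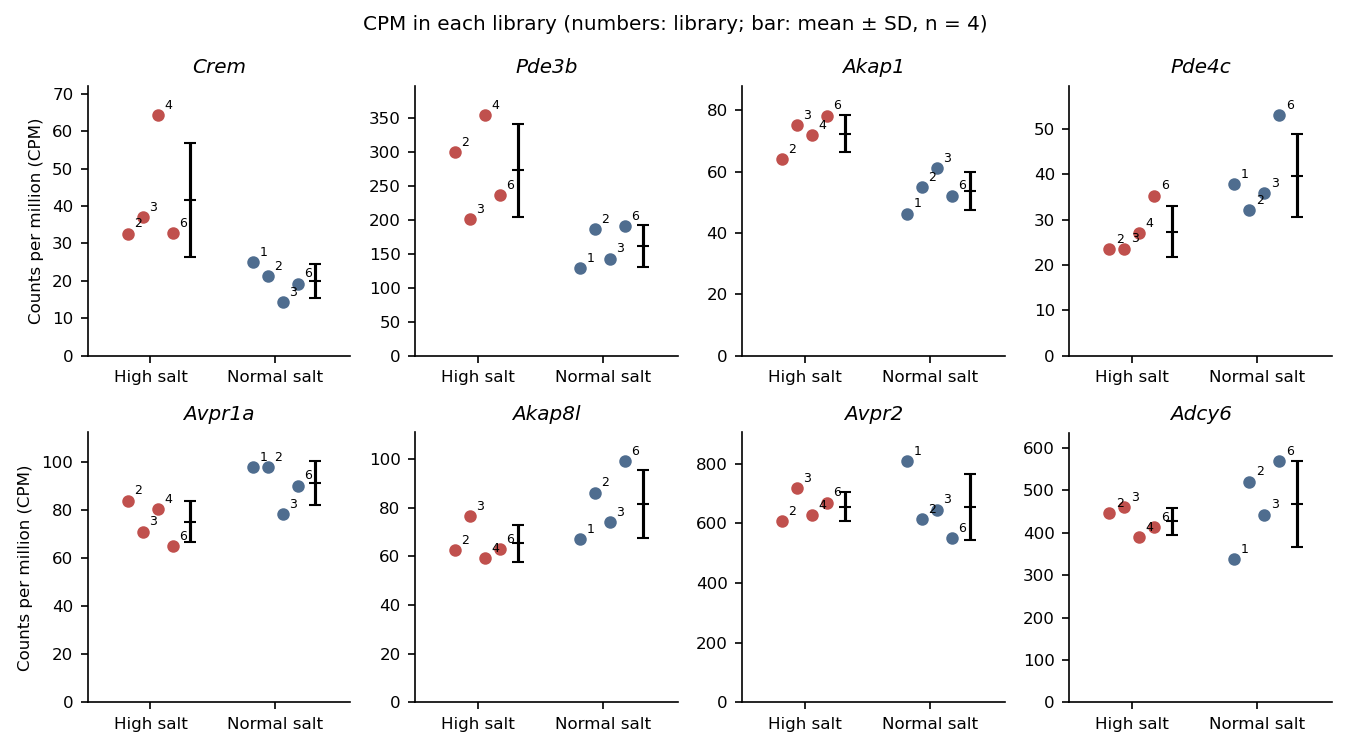
CPM of 8 members in each library (y axis from 0), high salt left and normal salt right, with library numbers beside the points and the mean ± SD of 4 libraries as a bar. Crem, Pde3b and Akap1 do not overlap between the diets, Pde4c, Avpr1a and Akap8l overlap in part, and Avpr2 and Adcy6 overlap widely.

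Crem, the cyclic AMP response element modulator, had the smallest p of the members. It had 32.6, 37.0, 64.3 and 32.7 CPM in the high-salt libraries, against 25.1, 21.3, 14.3 and 19.3 CPM in the normal-salt libraries. The diets did not overlap, and high-salt library 4 stood above the rest. The ratio of the means was 2.08, and the log2 fold change was 0.99 (SE 0.23, limma adjusted p = 0.142). It was 0.77 without high-salt library 4 (limma adjusted p = 0.264). It passed with limma's array quality weights (1.18, adjusted p = 0.0436), which give normal-salt library 1 a weight of 0.239. Over all 20 alternatives its adjusted p ranged from 0.0436 to 0.449.

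In TPM the difference was larger. Crem had 71.8, 72.8, 152 and 78.8 TPM under high salt, against 30.9, 38.6, 20.3 and 32.4 TPM under normal salt, a log2 fold change of 1.55 on the log2(TPM + 1) scale (limma adjusted p = 0.071). CPM counts reads and TPM divides them by the transcript length that the authors' program estimated, so the ratio of the values gives that length. The ratio was set to bases on 814 protein-coding genes with a single GENCODE transcript, and genes with short transcripts were left out of these. Of these 95.8% came within 1.2-fold of their annotated length in all 8 libraries. The same genes set the scale, so this does not test the length of a gene with many transcripts, such as Crem. The implied mean length of Crem transcripts was 781, 861, 707 and 703 bases under high salt, against 1202, 959, 1193 and 1046.5 bases under normal salt. The implied length was shorter in every high-salt library than in any normal-salt library. All high-salt lengths, and that of normal-salt library 2, lay below the shortest transcript allowed among the 814 genes. The scale in bases was therefore not checked at such lengths. The log2 difference, fitted on the ratio of CPM to TPM before it was set to bases, was -0.55 (SE 0.12). Over the 12594 genes with such a length the limma adjusted p was 0.903, where 0.0238% of genes passed. This measure was chosen after the values were seen. Of 38 members that had a length, 3 had an unadjusted p under 0.05 (7.89%), against 2.58% of all genes with a length. The others were Pde10a, with shorter implied transcripts under high salt (log2 difference -0.37), and Pde9a, with longer ones (0.16).

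Crem lies on the minus strand of chromosome 18 at 3266048-3337748, where GENCODE M21 lists 39 transcripts of 290 to 2931 bases. An internal promoter of this gene is known to make the short repressor ICER, the inducible cyclic AMP early repressor. Of the 39 transcripts 7 start more than 50 kb inside the gene, with a median length of 953 bases, and the other 32 have a median of 1211.5 bases. Some of those 32 are as short, such as transcripts of 598 and 654 bases that start 12274 bases from the first start. Others of 654 and 807 bases start 28025 bases from it, so a short length does not tell which start was used. The boundary was set after the starts were seen, and the tables do not give the level of each transcript. The exons of Crem overlap Gm6225 on the other strand.

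**Figure D4:**
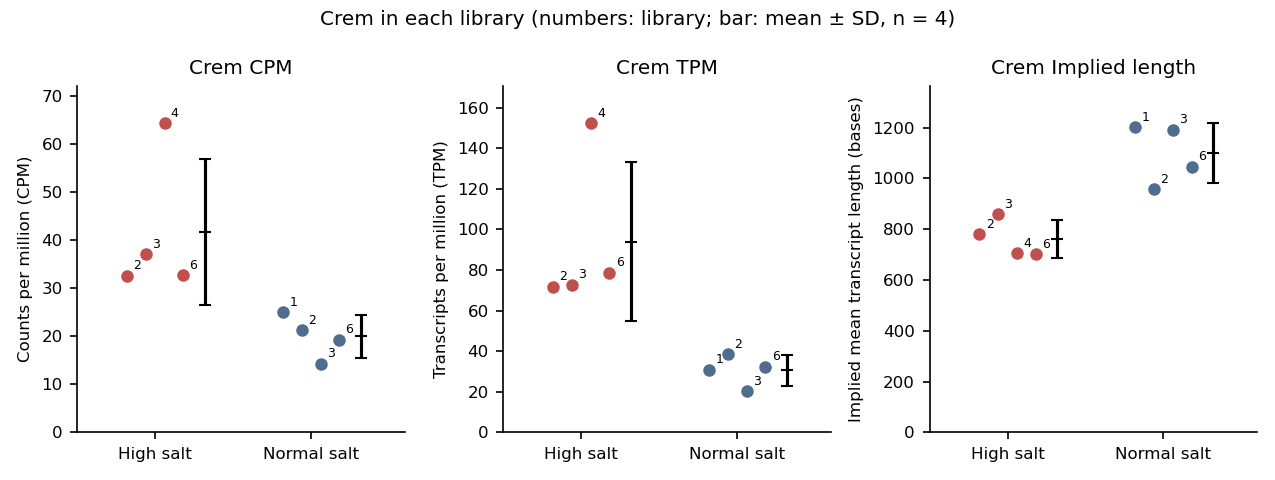
Crem in each library as CPM, as TPM and as the implied mean transcript length in bases (y axes from 0), high salt left and normal salt right, with library numbers and the mean ± SD of 4 libraries. In all 3 panels the diets do not overlap; length averages 763 ± 74.3 bases under high salt and 1100.2 ± 118 bases under normal salt.

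Creb1, the transcription factor CREB, had 59.0, 62.3, 48.8 and 60.4 CPM under high salt, against 46.1, 51.0, 58.0 and 58.1 CPM under normal salt. The groups overlapped and the log2 fold change was 0.11 (SE 0.11, limma adjusted p = 0.786). Leaving out 1 library gave 0.04 (normal-salt library 1) to 0.19 (high-salt library 4), with 0.07 when high-salt library 3 was dropped, and on the log2(TPM + 1) scale it was 0.40. In TPM it averaged 18.2 ± 2.33 under high salt and 13.9 ± 3.77 under normal salt, and Crem exceeded Creb1 in 8 of 8 libraries.

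Other genes of the pathway were counted in 9 lists. In 8 of them 0 tested genes passed limma's adjusted test. Among 17 known targets of cyclic AMP and CREB, 0 had an unadjusted p under 0.05 and the median log2 fold change was 0.01. The smallest p there was that of Nr4a2, an orphan nuclear receptor, at 5.88 ± 0.921 CPM under high salt and 4.19 ± 1.39 CPM under normal salt (log2 fold change 0.43, limma adjusted p = 0.503). Among 12 CREB partners (related factors, coactivators, and kinases and phosphatase subunits), 0 had an unadjusted p under 0.05, with a median of 0.05. Among 7 transport genes known to respond to vasopressin 1 passed, the sodium channel subunit Scnn1a, which fell to 485 ± 125 CPM under high salt, against 1198 ± 135 CPM under normal salt (log2 fold change -1.33, limma adjusted p = 0.026). That call held in 14 of 20 alternatives. It was lost with no filter (limma adjusted p = 0.228) and without any 1 of high-salt libraries 2, 3 or 4 or normal-salt libraries 3 or 6 (0.0517 to 0.109). At an unadjusted p under 0.05, 2 of the 7 were higher and 2 lower. Aqp3, the basolateral water channel, had a log2 fold change of 0.68 (limma adjusted p = 0.162), and the sodium channel subunit Scnn1b had -0.49 (limma adjusted p = 0.281). The other gene was Aqp2, at 0.67 (limma adjusted p = 0.286), named after its values were seen.

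Other effectors and inhibitors of the kinase had 9 tested genes, 1 higher and 1 lower at an unadjusted p under 0.05. Pkig, a protein kinase A inhibitor, had 69.9 ± 4.44 CPM under high salt and 84.6 ± 8.81 CPM under normal salt (log2 fold change -0.27, limma adjusted p = 0.35). Pkib, another such inhibitor, had 6.27 ± 1.14 CPM under high salt and 4.46 ± 0.967 CPM under normal salt (0.42, limma adjusted p = 0.444). Among 27 G protein subunits, receptor kinases and arrestins, 1 was higher and 3 lower at that level. Grk3, a kinase that phosphorylates active receptors, had 3.08 ± 2.45 CPM under high salt and 7.77 ± 2.60 CPM under normal salt (log2 fold change -1.22, limma adjusted p = 0.216). Arrb1, beta-arrestin 1, which desensitises and internalises receptors, had 155 ± 19.6 CPM under high salt and 204 ± 21.2 CPM under normal salt (-0.39, limma adjusted p = 0.223).

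Of 10 tested Gs-coupled receptors other than Avpr2, 1 was higher at an unadjusted p under 0.05, the glucagon-like peptide 2 receptor Glp2r, at 4.22 ± 0.841 CPM under high salt and 1.82 ± 1.44 CPM under normal salt (log2 fold change 1.03, limma adjusted p = 0.306). Of 9 Gi-coupled receptors 1 was higher, the adenosine receptor Adora1, at 354 ± 47.3 CPM under high salt and 262 ± 63.5 CPM under normal salt (log2 fold change 0.46, limma adjusted p = 0.374). Of 13 anchoring proteins not named Akap 1 was higher, the cytoskeletal linker Msn, and of 3 genes of cyclic GMP synthesis and kinases 0 had an unadjusted p under 0.05. For comparison, 5.95% of all tested genes were higher and 4.37% lower at that level.

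Normal-salt library 1 stood apart from the others and touched many members. Its median deviation from the mean of 8 libraries on the log2(CPM + 1) scale was -0.33 for the quintile of tested genes with the longest transcripts and 0.29 for the shortest, where every other library lay between -0.13 and 0.13 for either. It was the lowest of 8 libraries for 20 of the 42 tested members (47.6%), against 27.7% of all tested genes. Those 20 had a median longest transcript of 6020.5 bases, against 4077 bases for the other 22. Without it 0 members passed, against 0.373% of all genes, and 7 (16.7%) had an unadjusted p under 0.05, against 13.5% of all genes. Their median log2 fold change was then -0.02, and 8 of the 42 turned direction, none of them past 0.21 in size with all libraries. Recovered totals were 69.2 to 87.7 M estimated counts per high-salt library and 64.8 to 94.1 M per normal-salt library.

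**Figure D5:**
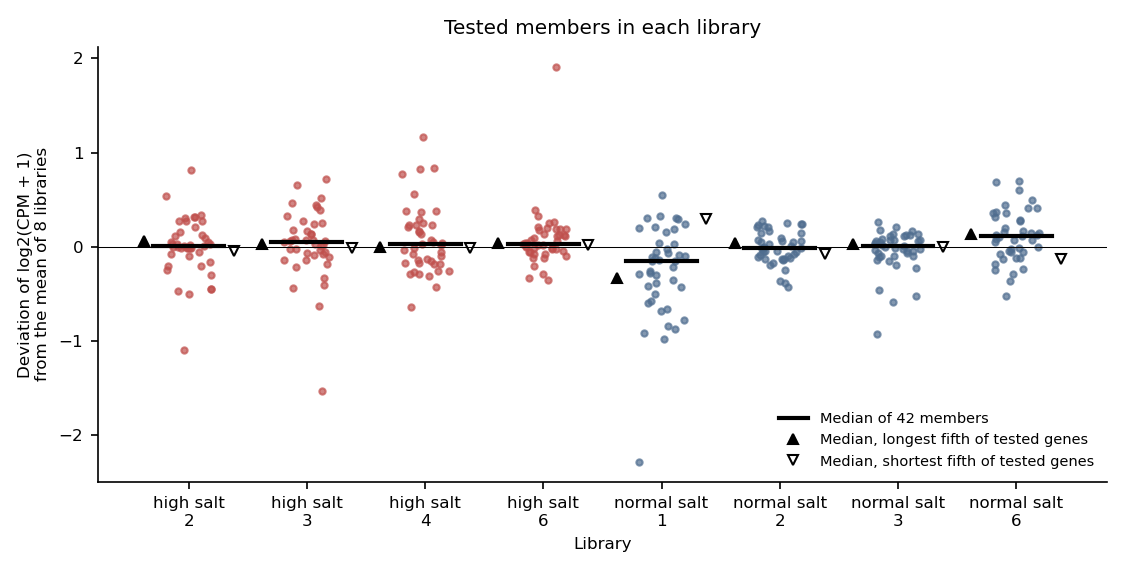
Deviation of log2(CPM + 1) from the mean of 8 libraries for the 42 tested members (points) in each library, high salt in red and normal salt in blue, with their median as a bar and the medians of the longest and shortest quintiles of all tested genes as filled and open triangles. Normal-salt library 1 is set apart, with medians of -0.33 for long and 0.29 for short genes.

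Collecting duct markers were high in all libraries, though the genes given here do not place the ducts in the outer medulla. Aqp2 had 14296 to 18026 CPM under high salt and 7581 to 12288 CPM under normal salt, and the intercalated gene Slc4a1 had 2072 to 3017 CPM under high salt and 2074 to 3257 CPM under normal salt. Proximal tubule markers summed to 5.98 to 110 CPM under high salt and 2.54 to 87.9 CPM under normal salt. Those of the thick ascending limb summed to 565 to 3239 CPM under high salt and 1055 to 2629 CPM under normal salt. Kcnj16 alone gave 467 to 502 CPM of this under high salt and 397 to 546 CPM under normal salt. Over 11 marker lists the principal cell mean was higher under high salt, at 9.94 ± 0.02 against 9.80 ± 0.03, the intercalated mean was lower, and that of urothelium and inner medullary duct was higher, at 0.482 ± 0.0539 under high salt against 0.383 ± 0.0269 under normal salt, each at p = 0.0286 by exact permutation, which is the lowest value possible here, and 0.105 after adjustment over the lists. The markers of urothelium and inner medullary duct, 6 of 6 in the tables, summed to only 4.70 to 6.995 CPM under high salt and 2.68 to 4.47 CPM under normal salt. Nearly all of this was Upk1a, at 4.70 to 6.76 CPM under high salt and 2.36 to 4.45 CPM under normal salt. Krt5 and Krt20 were at 0 in the high-salt libraries and above 0 in some normal-salt libraries. The principal cell list contains Aqp2 and Aqp3, which with Kcnj1 were higher in every high-salt library than in any normal-salt library. Scnn1b, also in that list, went the other way without overlap, at 362 to 475 CPM under high salt and 477 to 756 CPM under normal salt. The rest of that list overlapped between the diets.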

How the data were processed

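Per the file headers, the authors deposited a table of log2 CPM and a table of TPM, with 1 column per library. FastQC, Trimmomatic and build mm10 are named per the submitters' processing notes; no source used here names the aligner, counting program, its strand setting or the annotation. The deposited log2 values share a floor of -5.29. CPM was recovered as 2 to the power of each value, less the floor, rescaled to the same total in every library. Its steps gave estimated counts, not whole reads (83.8% to 85.0% of values under 1000 counts were whole within 0.005), so neither edgeR nor DESeq2 was run, and limma with voom on the estimated counts served as an alternative. Column names gave the diet but numbers that differ from the sample titles, so no column was tied to a title.

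A gene was tested when 4 or more of the 8 libraries reached 1 CPM; the test was limma 3.58.1 (R 4.3.3) on log2(CPM + 1) (lmFit, eBayes with trend, two-sided, Benjamini-Hochberg over 13401 genes, threshold 0.05). The fit was tested on simulated data. Per the labels each pool came from a single mouse, but no label says outright that libraries of a diet came from different mice; p-values measure the spread between these libraries. Marker means were compared by exact permutation over 70 assignments. Errors are SD. Positions come from GENCODE M21 (GRCm38), matched by symbol. Members with an unadjusted p under 0.05, with no overlap, or on a fixed list of 13 genes are given per library; other members so given, such as Adcy1, Pde2a, Akap12 and Akap13, were added after their values were seen. Up to 3 genes with the smallest p per pathway list are named. Members and lists were chosen with earlier results of these data known.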

Additional observations from a re-analysis of the deposited data

Results flagged for a closer look

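Among 84 groups of 4 libraries (42 tested members in each diet), 11 (13.1%) had a library set apart from the others by more than Dixon's 95% limit for the gap as a share of the range; chance alone flags about 1 group in 20, and the share over all tested genes was 6.12%. Normal-salt library 1 was the low library in 4 of them, which is 9.52% of tested members, against 1.84% of all tested genes. It had 64.9 CPM of Akap11, where the other normal-salt libraries had 107 to 116, and 21.1 CPM of Akap13, where the others had 44.2 to 47.9. It had 84.2 CPM of Akap9, where the others had 164 to 180, and 16.6 CPM of Pde4a, where the others had 20.8 to 21.4.

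High-salt library 4 had 64.3 CPM of Crem, where the other high-salt libraries had 32.6 to 37.0, and 73.2 CPM of Prkacb, where the others had 87.0 to 88.6. High-salt library 6 had 19.6 CPM of Adcy1, where the others had 0.892 to 3.48, and 651 CPM of Gnas, where the others had 719 to 721. High-salt library 3 had 0.759 CPM of Adcy4, where the others had 2.12 to 2.36, and 82.7 CPM of Prkaca, where the others had 81.3 to 81.5, a small gap. High-salt library 2 had 193 CPM of Akap9, where the others had 157 to 161.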

How the results depend on the processing

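Over all genes, 11 passed limma's adjusted test, against 129 with array quality weights, 0 with no filter, 38 with the replicate block, 22 with robust moderation, 35 with the thick ascending limb covariate, and 0 to 50 leaving out 1 library. It was 0 without high-salt library 4 or normal-salt library 3, and 50 without normal-salt library 1. The replicate block fitted a term for each column number. Normal-salt library 1 and high-salt library 4 have numbers found in only 1 diet, so they did not inform its fold changes. Among the members 0 passed under every setting but array quality weights, where 1 did (Crem, 1.18); leaving out 1 library gave 0 to 0. Members at an unadjusted p under 0.05 numbered 5 to 8. Fold changes near 0 changed sign: Gnas was 0.0247 with array quality weights and 0.0257 with the replicate block (leaving out 1 library, -0.0688 to 0.0373), and Prkaca was 0.0038 on TPM, 0.0164 with array quality weights and 0.0550 with the replicate block (-0.0542 to 0.0531). Leaving out 1 library gave -0.0651 to 0.118 for Avpr2, -0.269 to 0.0273 for Pde4d and -0.12 to 0.0065 for Prkar2a. Marker lists with an exact p under 0.05 numbered 3, 1 on TPM and 1 to 4 leaving out 1 library. The causes were not tested. Same-numbered libraries correlated at 0.21, 0.29 and 0.0020. High-salt libraries 2 and 3 and normal-salt library 3 correlated best with their own number. High-salt library 6 and normal-salt libraries 2 and 6 correlated best with another number. The numbers were not taken as pairs, though so few correlations cannot settle whether they are. edgeR's test was not run, since recovered counts are estimates, and Pde4d did not reach a filter of 5 CPM.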
